A study of Rattus norvegicus with 6 samples.

Results

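The genes described here are 30 genes of regulated secretion, chosen by symbol for their known roles: voltage-gated ion channels, proteins of granule docking and fusion, receptors for agents that stimulate insulin release, and adenylyl cyclases. All 30 were among the 17321 genes counted, and all 30 passed the filter on low counts that left 12276 genes for testing. They were measured by RNA sequencing in islets from Sprague Dawley rat fetuses at gestational day 22. The 3 libraries labelled high glucose came from the left uterine horn, which received a glucose infusion (4 mg/min, started on gestational day 20 and kept up for 48 h), and the 3 libraries labelled control came from the right horn of the same 3 dams. Which libraries shared a dam was read from the sample titles. Each library held islets of 2 pooled fetal pancreata. In both groups the islets were isolated with collagenase, picked by hand and rested for 24 h at 5 mM glucose ahead of lysis, so the values describe islets after that rest. The labels name no transgene, no genotype and no fetal sex. Horn side goes with treatment in all 3 pairs and cannot be told apart from it. The deposited alignments are named with the opposite horn letter to the sample titles in all 6 libraries. Directions follow the treatment labels and would turn round under the other naming.

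Insulin leaves the beta cell when a granule fuses with the plasma membrane. Depolarization opens voltage-gated calcium channels, and the calcium that enters is sensed by synaptotagmins, which act on the SNARE complex of VAMP2 on the granule with syntaxin 1A and SNAP25 on the plasma membrane. Rab GTPases and their effectors bring granules to the membrane, priming factors make them ready to fuse, and receptors that raise cyclic AMP or mobilize calcium amplify the response. Fetal beta cells are known to release insulin poorly in response to glucose, and much of this machinery is shared with neurons and with the other endocrine cells of the islet.

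Promoter sequences of 22 of the 30 genes were found in the RefSeq table of the GRCr8 assembly, as windows from 250 bases before to 50 bases after the annotated start. Those of Syt13, Snap25, Syt5, Syt7, Rims2, Doc2b, Adcy8 and Gipr were not matched. The median GC content was 67.7% in these 22 windows and 51.7% in all 33469 windows of the table. The GC box (GGGCGG, either strand) occurred in 16 of 22 windows and in 33.1% of all windows, and the core of the cyclic AMP response element (TGACG, either strand) in 11 of 22 and in 21.2%. The TATA box (TATAAA, either strand) occurred in 0 of 22 and in 14.2%. The left arm of RE1 (TTCAGCACC, either strand), the element bound by REST, a repressor of neuronal and islet exocytosis genes in other tissues, occurred in 2 of 22, those of Kcnh6 and Unc13a, and in 0.356% of all windows. These matches describe letters in a window and no measurement of binding was made. The sequences shown next are the 250 bases before the start of Vamp2, the most abundant of the 30 genes per length and one of the steadiest, of Sytl4, one of the most variable, and of Glp1r, with GC boxes and cyclic AMP cores in capitals, followed by the stretches of Kcnh6 and Unc13a that hold the RE1 arm, in capitals. Each is written 5′ to 3′ on the strand of the gene.
Vamp2, chr10:54292539-54292788, plus strand: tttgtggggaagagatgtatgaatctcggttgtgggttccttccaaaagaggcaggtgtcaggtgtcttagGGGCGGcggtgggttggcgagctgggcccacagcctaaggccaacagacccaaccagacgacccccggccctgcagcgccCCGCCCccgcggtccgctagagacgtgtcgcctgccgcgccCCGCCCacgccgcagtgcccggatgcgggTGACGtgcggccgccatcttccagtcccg
Sytl4, chrX:101479152-101479401, minus strand: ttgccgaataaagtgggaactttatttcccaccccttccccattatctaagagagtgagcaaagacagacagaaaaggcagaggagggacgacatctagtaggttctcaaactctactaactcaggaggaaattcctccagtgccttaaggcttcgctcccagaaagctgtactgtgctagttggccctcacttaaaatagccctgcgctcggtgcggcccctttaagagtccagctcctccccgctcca
Glp1r, chr20:8973143-8973392, plus strand: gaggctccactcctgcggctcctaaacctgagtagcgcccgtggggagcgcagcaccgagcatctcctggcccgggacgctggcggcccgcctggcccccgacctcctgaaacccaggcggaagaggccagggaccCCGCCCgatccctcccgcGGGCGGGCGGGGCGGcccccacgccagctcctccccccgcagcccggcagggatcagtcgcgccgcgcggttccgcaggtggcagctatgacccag
Kcnh6, chr10:91449435-91449463, plus strand: cttggcttatTTCAGCACCacgccgcgga
Unc13a, chr16:18415765-18415793, minus strand: ccgcgcccccGGTGCTGAAgcgacatggc
The Vamp2 stretch holds 3 GC boxes and 1 cyclic AMP core, the Glp1r stretch 4 GC boxes, partly overlapping, and the Sytl4 stretch none of the 4 motifs. In Unc13a the arm lies on the opposite strand and just after the annotated start.

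Total counts lay between 18077841 and 30993532 per library, lowest in the control library of pair 2. The libraries differed in how they represented long and short genes. Over all tested genes, both pair 2 libraries ran above the gene's mean for genes with up to 1000 bases of counted exon (median log2 deviation 0.32 and 0.37) and below it for genes over 8000 bases (-0.35 and -0.31). Both pair 1 libraries ran the other way (-0.27 and -0.35, then 0.31 and 0.38). In pair 3 the 2 libraries went in opposite directions, the control library from 0.13 to -0.35 and the high glucose library from -0.17 to 0.31. The median log2 difference between high glucose and control in pair 3 therefore ran from -0.27 for the shortest class to 0.71 for the longest, against -0.07 and 0.05 for the same classes in pair 1 and 0.02 and 0.04 in pair 2.

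No difference between the groups was called for any of the 30 genes. In edgeR's quasi-likelihood test with dam as a block, 0 of 30 passed an adjusted p below 0.05, where 0.0163% of all tested genes did, and 0 of 30 had an unadjusted p below 0.05, where 4.82% of all tested genes did. DESeq2 also called 0 of 30 (0.863% of all tested genes), with 0 of 30 at an unadjusted p below 0.05 (5.25%). Counts scaled to a common library size (CPM) overlapped between the groups for all 30 genes. Over all tested genes 3.31% did not overlap, 1.21% with high glucose above control and 2.1% with it below. For 30 genes, 0 is close to that share. The fitted log2 differences ran from -0.69 to 0.46 with a median of 0.00033, beside a median of 0.0041 over all tested genes. The smallest unadjusted edgeR p among them was 0.130, and the smallest adjusted p was 0.9996. These results bound the differences only loosely. For 16 of the 30 genes the 95% interval of the fitted log2 difference lay within 1 in either direction, that is within a 2-fold change, and for 14 it reached further. The replicates are the 3 dams, and 3 pairs carry the whole comparison.

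**Figure D1:**
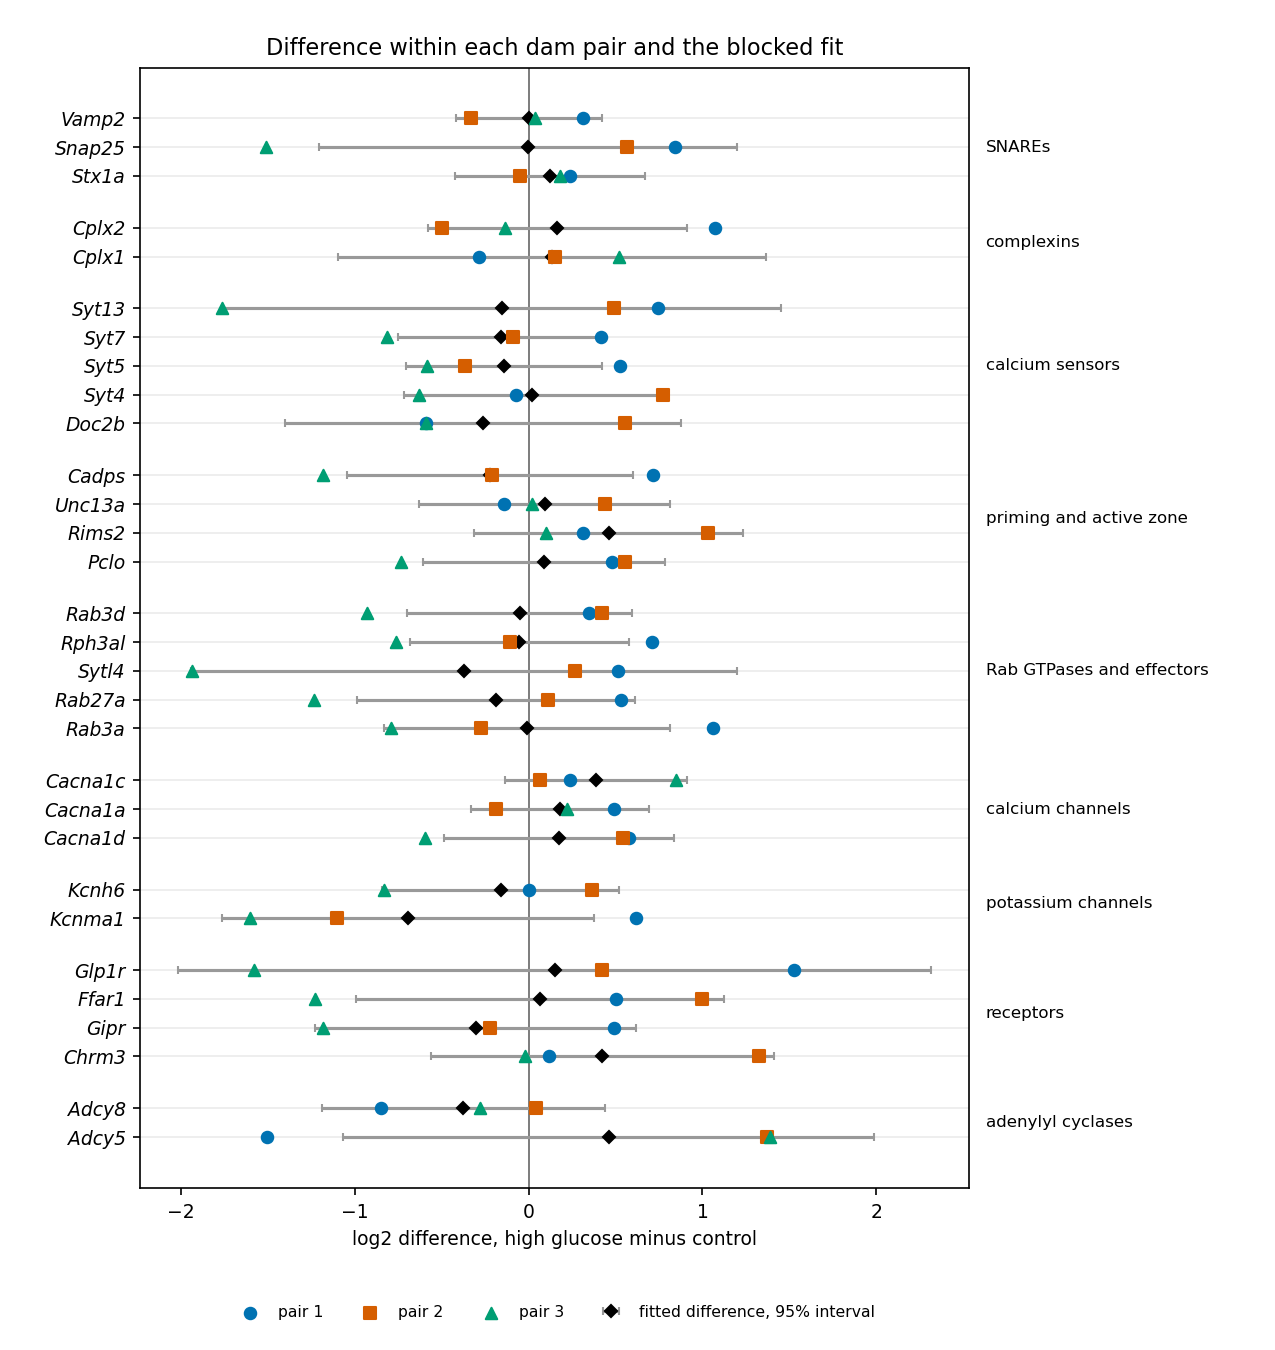
Log2 difference between the high glucose and the control library (x axis) in each dam pair (coloured points) for the 30 genes (rows, grouped by role), with the difference fitted by edgeR and its 95% interval (black diamonds and grey bars). All 30 intervals include 0, and the pair 3 points lie left of 0 for 22 genes while the pair 1 points lie right of 0 for 24.

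What the genes did instead was differ between pairs. In pair 1, 24 of 30 were higher in the high glucose library (50.1% of all tested genes were) and 6 lower (49.9%), and in pair 3, 22 of 30 were lower (51.3% of all tested genes) and 8 higher (48.7%). In pair 2, 19 were higher (52.2%) and 11 lower (47.8%). The same gene was higher in pair 1 and lower in pair 3 for 19 of 30, where 24.9% of all tested genes followed that course. Medians of their log2 differences were 0.48, 0.21 and -0.68 in pairs 1, 2 and 3, beside medians over all tested genes of 0.0013, 0.020 and -0.016. In pair 3, 9 of 30 were at least 2-fold lower in the high glucose library (6.69% of all tested genes) and 1 at least 2-fold higher (4.39%). In pair 1, 3 of 30 were at least 2-fold higher (3.47%) and 1 lower (5.98%), and in pair 2 the numbers were 3 (3.55%) and 1 (4.36%). Direction was shared by all 3 pairs for 2 genes, Cacna1c and Rims2, both higher in high glucose (11.7% of all tested genes were higher in all 3 pairs), and 0 were lower in all 3 (11.3%).

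Among the SNAREs, Vamp2 (rn6 chromosome 10, 55675537 to 55679405), the granule partner of the complex, had the highest level per length of the 30 genes, a mean of 42.5 CPM per kilobase of counted exon over the 6 libraries. It measured 80.4, 122.6 and 75.8 CPM in the control libraries of pairs 1 to 3 and 99.7, 97.3 and 77.7 CPM in the high glucose libraries. The groups overlapped, with the control library of pair 2 the highest, and means of 92.9 ± 25.8 and 91.6 ± 12.1 CPM (SD, n = 3). The fitted log2 difference of Vamp2 was 0.0048 (95% interval -0.42 to 0.42). The fit weighs differences within pairs, and for 6 of the 30 genes (Vamp2, Snap25, Syt7, Rph3al, Unc13a and Cadps) its sign was opposite to that of the difference between group means. Stx1a (chromosome 12, 24682050 to 24710002), which encodes syntaxin 1A, was the steadiest of the 30 genes, with 10.4, 10.8 and 11.2 CPM in control libraries and 12.3, 10.4 and 12.7 CPM under high glucose. Its highest library was only 1.22 times its lowest, where the median of that ratio was 3.91 over the 30 genes and 2.23 over all tested genes. Snap25 (chromosome 3, 129697408 to 129788417), the partner of syntaxin on the plasma membrane, was not steady. It measured 13.8, 7.24 and 14.2 CPM in control libraries and 24.7, 10.7 and 4.95 CPM under high glucose, so that the high glucose group held both its highest and its lowest library. Its fitted log2 difference was -0.0041 (95% interval -1.21 to 1.20), with pair differences of 0.84, 0.57 and -1.51. The SNARE genes of the same complex thus had log2 differences in pair 3 of 0.036 (Vamp2), 0.18 (Stx1a) and -1.51 (Snap25), although all 3 have between 2044 and 2170 bases of counted exon.

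The complexins clamp and then help release the assembled SNARE complex, and the 2 measured here differed in level and in course. Cplx2 had a mean of 12.6 CPM per kilobase and Cplx1 of 0.516. Cplx2 measured 13.1, 5.69 and 9.21 CPM in control libraries and 27.7, 4.00 and 8.38 CPM under high glucose, highest in pair 1 and lowest in pair 2. Cplx1, with 14 to 41 counts per library, went the other way across dams, at 1.79 and 2.00 CPM in pair 2 and 0.477 to 0.782 CPM in the other 4 libraries. It was the single gene of the 30 with both pair 2 libraries above the other 4, as 21.2% of all tested genes were, and genes of its length class (over 2000 and up to 3000 bases) differed in pair 2 by a median of -0.10. Neither passed the test, with fitted log2 differences of 0.16 (95% interval -0.58 to 0.91) for Cplx2 and 0.13 (-1.09 to 1.36) for Cplx1.

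The genes grouped as calcium sensors were synaptotagmins and Doc2b. The most abundant was Syt13 (chromosome 3, 81814287 to 81852454), an atypical synaptotagmin of endocrine cells. Syt13 lacks calcium binding and so is no sensor itself, and had a mean of 19.0 CPM per kilobase. It measured 30.9, 6.37 and 37.0 CPM in control libraries and 51.9, 8.98 and 10.8 CPM under high glucose. Its pair 3 difference of -1.76 was exceeded in size by that of Sytl4 alone among the 30 genes, and the 95% interval of its fitted difference ran from -1.76 to 1.45. Syt7, a sensor of high calcium affinity that acts in insulin release, followed at 14.3 CPM per kilobase, with 33.4, 7.73 and 19.5 CPM in control libraries and 44.5, 7.28 and 11.1 CPM under high glucose. Syt5, which sits on dense-core granules, had 12.8 CPM per kilobase and varied less, from 15.8 to 29.8 CPM over the 6 libraries. Syt4, a synaptotagmin whose rise accompanies the maturation of beta cell secretion, was lower at 2.18 CPM per kilobase, with 11.97, 6.62 and 5.73 CPM in control libraries and 11.4, 11.4 and 3.67 CPM under high glucose. Doc2b, a soluble calcium sensor, was near the bottom at 0.892 CPM per kilobase and 12 to 96 counts per library. All 5 were lower in the high glucose library of pair 3, and the fitted log2 differences of Syt13, Syt7, Syt5, Syt4 and Doc2b were -0.15, -0.16, -0.14, 0.021 and -0.26.

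Among the Rab GTPases and their effectors, all 5 were higher in the high glucose library in pair 1 and lower in pair 3, with medians of 0.53, 0.11 and -0.93 in pairs 1 to 3. Rab3d (chromosome 8, 22920240 to 22929270), a Rab of granules in endocrine and exocrine cells, was the most abundant of them at 24.5 CPM per kilobase. It measured 53.7, 32.7 and 82.3 CPM in control libraries and 68.3, 43.7 and 43.1 CPM under high glucose. Rph3al (Noc2), an effector of Rab3 and Rab27 that is needed for insulin release, measured 39.6, 32.7 and 52.2 CPM against 64.9, 30.3 and 30.7 CPM. Sytl4 (granuphilin; chromosome X, 104765492 to 104791210), the Rab27a effector that docks insulin granules, measured 40.1, 5.999 and 50.8 CPM in control libraries and 57.4, 7.23 and 13.2 CPM under high glucose. Sytl4 had the lowest pair 3 difference of the 30 genes, -1.94 on the log2 scale, and its pair 2 mean was 16.4% of its mean in pairs 1 and 3, where genes of its length class (over 2000 and up to 3000 bases) differed in pair 2 by a median of -0.10. Rab27a, its GTPase, had pair differences of 0.53, 0.11 and -1.23, and Rab3a, the synaptic Rab3, of 1.06, -0.27 and -0.79. Fitted log2 differences of the 5 genes lay between -0.37 (Sytl4, 95% interval -1.94 to 1.20) and -0.0079 (Rab3a, -0.83 to 0.81).

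Priming and active-zone genes were less abundant per length. Cadps, which primes dense-core granules, led them with 5.51 CPM per kilobase and measured 23.0, 11.8 and 22.6 CPM in control libraries and 37.9, 10.2 and 9.93 CPM under high glucose. Unc13a (Munc13-1), which opens syntaxin for SNARE assembly, had 1.15 CPM per kilobase and small differences within pairs of -0.14, 0.44 and 0.017. Rims2, an active-zone scaffold that binds Rab3, was 1 of the 2 genes with a shared direction, and measured 6.98, 1.299 and 5.87 CPM in control libraries and 8.71, 2.73 and 6.29 CPM under high glucose. Its groups still overlapped, since the pair 2 libraries were the lowest of both, and the fitted log2 difference of 0.46 (SE 0.348, 95% interval -0.31 to 1.23, edgeR unadjusted p = 0.215) did not pass. Genes of its length class (over 4000 and up to 6000 bases) had a median pair 3 difference of 0.26, and Rims2, at 0.10, lay below it. With offsets that remove the trend with exon length, the fitted difference of Rims2 was 0.34 (edgeR unadjusted p = 0.362), and without pair 2 it was 0.21. Pclo (piccolo), the longest of the 30 genes at 15985 bases of counted exon, varied most between libraries, at 23.3, 2.10 and 7.30 CPM in control libraries and 32.5, 3.125 and 4.36 CPM under high glucose. Its highest library was 15.4 times its lowest, and pair 2 stood at 15.5% of the mean of the other pairs. Long genes were in general lower in pair 2, by a median of -0.49 on the log2 scale for the class over 8000 bases.

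**Figure D2:**
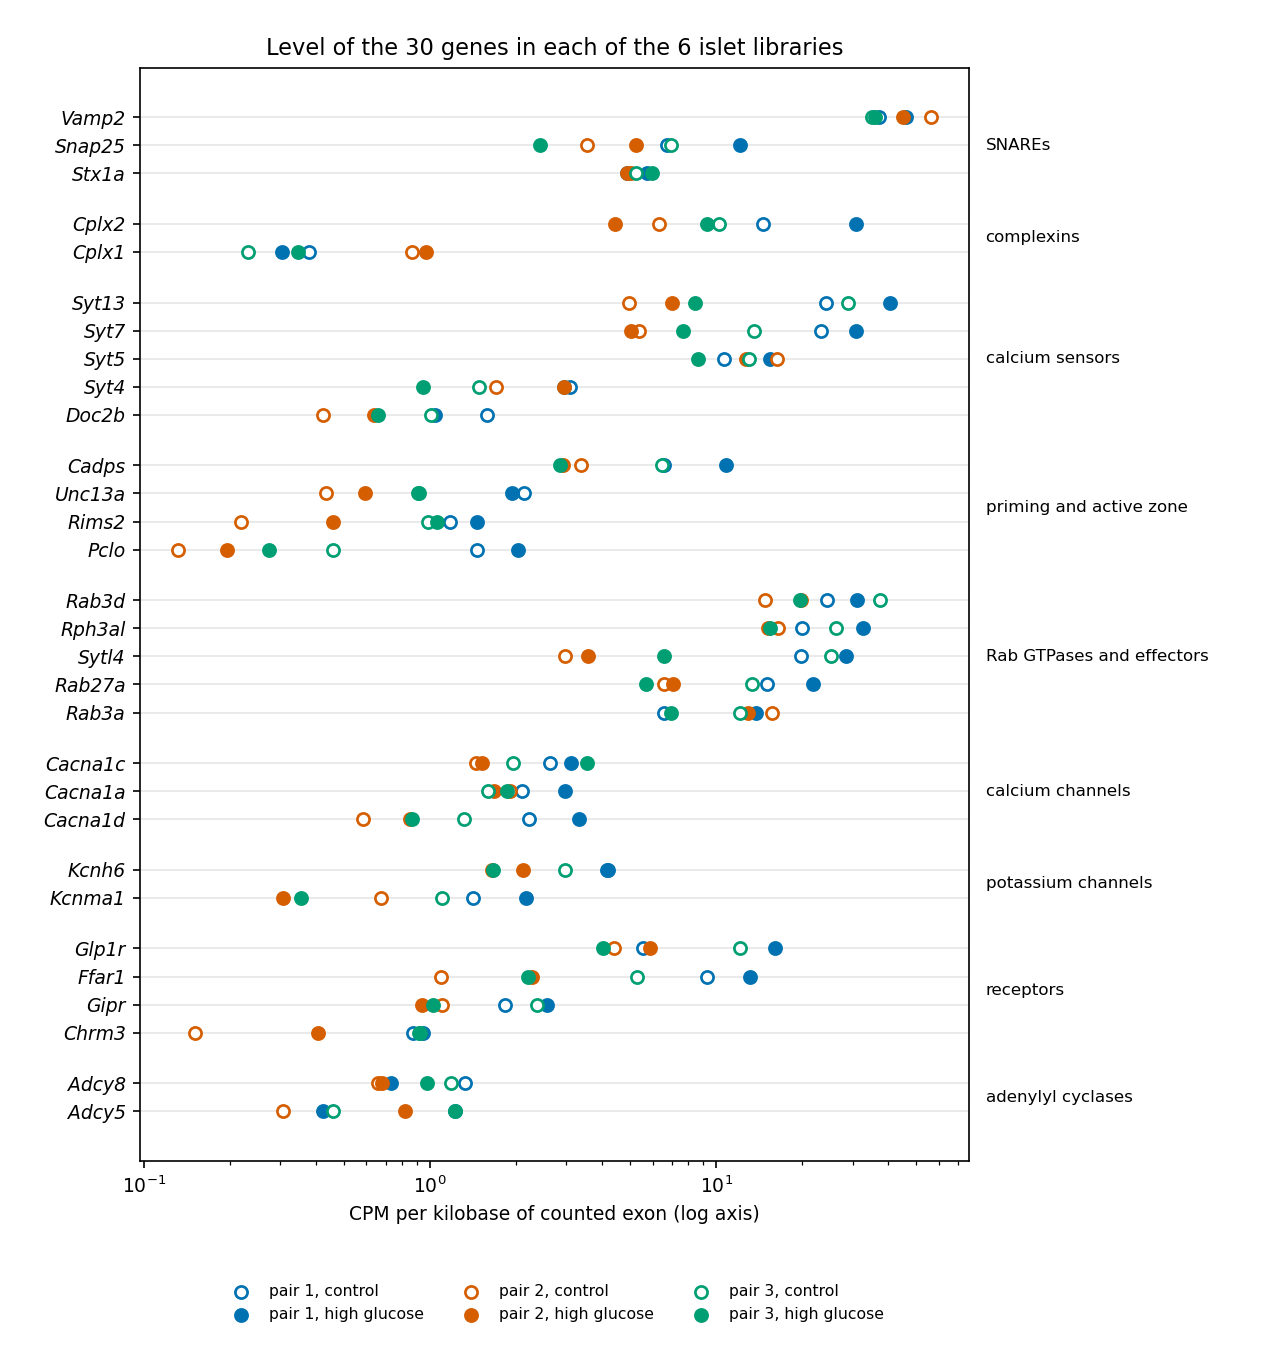
CPM per kilobase of counted exon (x axis, log scale) of the 30 genes (rows, grouped by role and ordered by mean level) in each control (open) and high glucose (filled) library, coloured by dam pair. Vamp2 has the highest mean at 42.5 and Cplx1 the lowest at 0.516, and open and filled points overlap in every row.

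The calcium channels included the second gene with a shared direction. Cacna1c (chromosome 4, 150641066 to 151269159), which encodes the L-type channel Cav1.2, measured 21.7, 12 and 16.1 CPM in control libraries and 25.6, 12.5 and 29.1 CPM under high glucose. The means were 16.6 ± 4.88 and 22.4 ± 8.73 CPM, the pair differences 0.24, 0.064 and 0.85, and the fitted log2 difference 0.39 (SE 0.236, 95% interval -0.14 to 0.91, edgeR unadjusted p = 0.130, the smallest of the 30). Genes over 8000 bases had a median pair 3 difference of 0.71, so Cacna1c, with 8257 bases of counted exon, exceeded its length class there by 0.14. With offsets that remove the trend with exon length, its fitted difference was 0.21 (edgeR unadjusted p = 0.34). It was 0.16 without pair 3 and 0.54 without pair 2. Cacna1d (Cav1.3), the other L-type channel of beta cells, measured 17.7, 4.64 and 10.5 CPM in control libraries and 26.4, 6.79 and 6.91 CPM under high glucose, with a pair 3 difference of -0.59 where genes of its length class (over 6000 and up to 8000 bases) had a median of 0.41. Cacna1a, the P/Q-type channel that couples closely to fusion, was steadier, at 14.2 to 18.7 CPM in control libraries and 14.9 to 26.3 CPM under high glucose. Levels per length of the 3 channels were 2.36, 1.52 and 2.02 CPM per kilobase for Cacna1c, Cacna1d and Cacna1a.

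Both potassium channels repolarize the beta cell after a spike. Kcnh6, a voltage-gated channel, measured 14.1, 5.57 and 10.03 CPM in control libraries and 14.1, 7.18 and 5.60 CPM under high glucose. Kcnma1, the large-conductance calcium-activated channel, measured 7.65, 3.65 and 6.002 CPM against 11.8, 1.66 and 1.93 CPM. Kcnma1 had the lowest fitted log2 difference of the 30 genes, -0.69 (SE 0.474, 95% interval -1.76 to 0.37, edgeR unadjusted p = 0.176), but pair 1 went the other way at 0.62. Its fitted difference was -1.40 without pair 1, -0.47 without pair 2, -0.19 without pair 3, -0.17 without the dam block and -0.30 with limma voom, and in the last 4 of these it was not the lowest of the 30. This channel is also abundant in smooth muscle, whose 8 markers had medians of -0.45, -0.57 and -0.54 in pairs 1 to 3 and summed levels of 755 to 2440 CPM in control libraries and 849 to 1319 CPM under high glucose. The part of smooth muscle in the Kcnma1 values was not tested.

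Among the receptors, Glp1r (chromosome 20, 9586075 to 9626228), the receptor of the incretin GLP-1, was the most abundant at 7.995 CPM per kilobase and the one with the widest error of all 30. It measured 17.0, 13.5 and 37.0 CPM in control libraries and 49.1, 18.1 and 12.3 CPM under high glucose. The high glucose library was nearly 3 times the control library in pair 1 and the lowest of all 6 in pair 3, with pair differences of 1.53, 0.42 and -1.58. The fitted log2 difference was 0.15 (SE 0.747, 95% interval -2.02 to 2.32). Ffar1 (GPR40), the fatty acid receptor of beta cells, measured 8.40, 0.990 and 4.77 CPM in control libraries and 11.9, 2.05 and 1.99 CPM under high glucose, with 16 to 379 counts per library. Gipr, the receptor of the other incretin, GIP, was lower per length at 1.64 CPM per kilobase, with pair differences of 0.49, -0.22 and -1.18. Chrm3, the muscarinic receptor through which vagal acetylcholine acts, had a pair 3 difference of -0.018, beside a median of 0.26 in its length class (over 4000 and up to 6000 bases). The other 3 receptor genes are shorter, in classes with medians of -0.27 to 0.12. It measured 3.56, 0.619 and 3.79 CPM in control libraries and 3.87, 1.66 and 3.74 CPM under high glucose, and its control library of pair 2 held only 10 counts.

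The adenylyl cyclases, which make the cyclic AMP through which incretins act, are Adcy5 and Adcy8. Adcy5 measured 5.94, 1.48 and 2.22 CPM in control libraries and 2.04, 3.95 and 5.92 CPM under high glucose, and was the gene with the lowest difference of the 30 in pair 1 (-1.51) and the highest in pairs 2 and 3 (1.37 and 1.39). Its fitted log2 difference was 0.46 (SE 0.659, 95% interval -1.07 to 1.99). Genes of over 4000 and up to 6000 bases, the class of Adcy5, had a median pair 3 difference of 0.26, and Adcy5 exceeded it by 1.13. Adcy8, the calcium-stimulated cyclase, measured 6.11, 3.03 and 5.46 CPM in control libraries and 3.36, 3.125 and 4.48 CPM under high glucose, a fitted log2 difference of -0.38 (95% interval -1.19 to 0.44).

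The 8 genes that were not lower in pair 3 were Vamp2, Stx1a, Cplx1, Rims2, Unc13a, Cacna1a, Cacna1c and Adcy5. Of the 10 genes with more than 4000 bases of counted exon 5 were lower in pair 3, and of the 20 shorter genes 17 were. Over all tested genes the shares lower in pair 3 were 25.7% above 4000 bases and 56.1% up to 4000 bases, so the same split by length was present there. The median of its length class was then taken from each gene. The median pair 3 difference of the 30 genes was -0.66 in place of -0.68, and 24 of 30 were lower. By construction, that step leaves as many of all tested genes above their class median as below it. Cacna1a, Rims2 and Unc13a then lay below their class (-0.48, -0.16 and -0.24), and Cplx2 lay above its own (0.13). The fit with offsets by exon length called 0 of 30 genes, with 0 of 30 at an unadjusted p below 0.05.

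**Figure D3:**
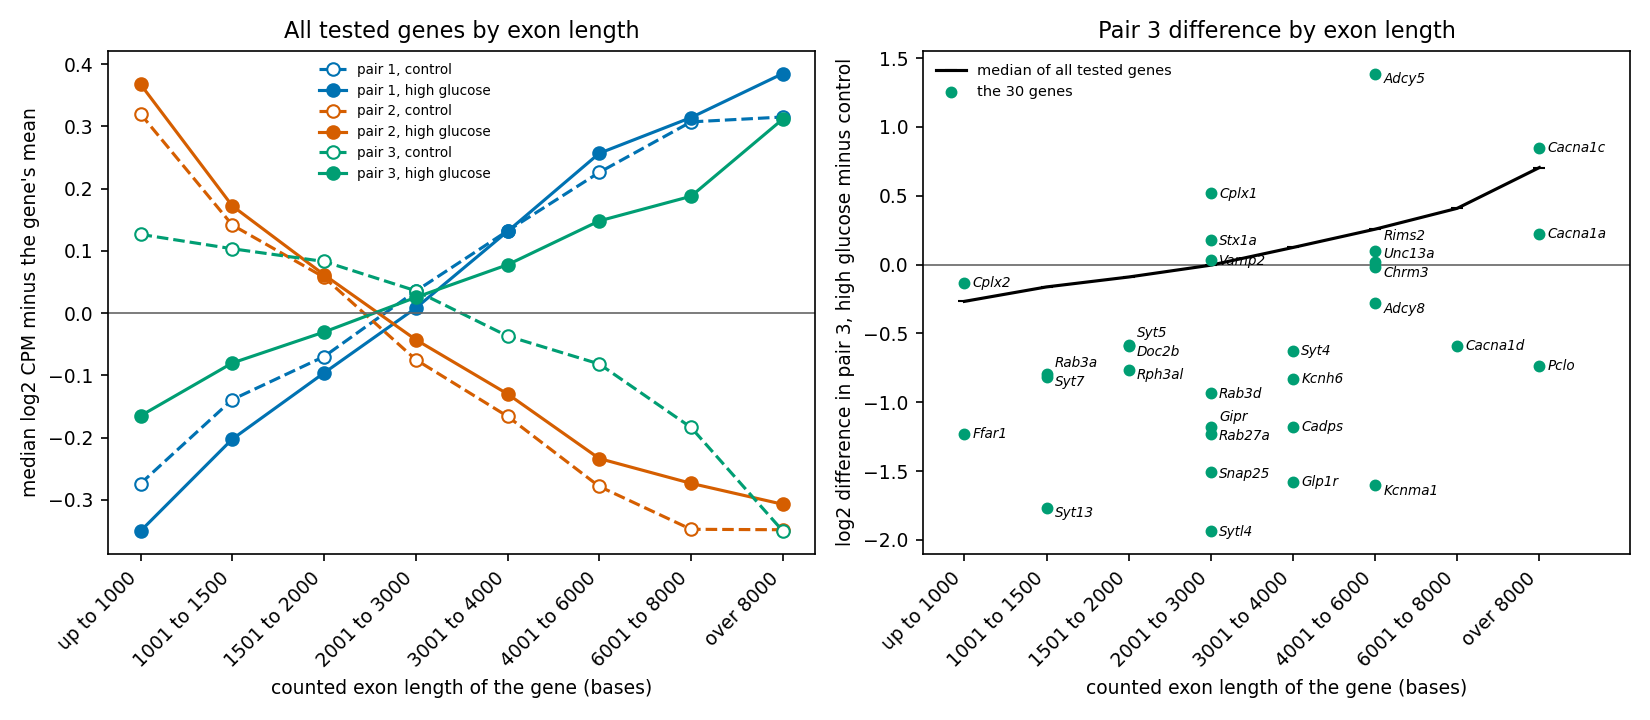
Left, median log2 CPM minus the gene's own mean (y axis) over all tested genes in 8 classes of counted exon length (x axis) for each of the 6 libraries. Right, the pair 3 difference (y axis) of the 30 genes (points) by length class, with the median of all tested genes as a line, which runs from -0.27 for the shortest to 0.71 for the longest class.

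Markers of endocrine granules and of beta cells differed between pairs in the same sense. Alpha cell markers did so less clearly, with medians of 0.016, -0.027 and -0.72 in pairs 1 to 3. Of these 6 genes, 3 were higher in pair 1. The 4 delta and PP cell markers had medians of 0.25, -0.29 and -0.97, and all 4 were higher in pair 1. The 8 tested genes of endocrine granules (chromogranins, secretogranins and processing enzymes, of 9 listed) had median log2 differences of 0.83, 0.10 and -1.54 in pairs 1 to 3, and the 9 tested beta cell markers of 0.91, 0.02 and -2.33. Summed levels of the granule genes were 2597 to 4853 CPM in control libraries and 2635 to 6162 CPM under high glucose, and those of the beta cell markers 11212 to 22856 and 4939 to 18681 CPM. In pair 3 the beta cell sum was 22856 CPM in the control library and 4939 CPM in the high glucose library. In pair 3, 26 of the 30 secretion genes had a difference above the median of the granule genes, while Sytl4, Syt13, Kcnma1 and Glp1r lay below it. Most genes lay above that median of -1.54, since only 6.69% of all tested genes were even 2-fold lower in pair 3. The count of 26 therefore does not set the secretion genes apart. In bulk islets, fewer endocrine cells and less RNA per cell cannot be told apart. Scaled to the granule genes in place of all genes, 0 of 30 genes were called. Relative to the granule genes, the medians of the 30 genes became -0.34, 0.11 and 0.86 in pairs 1 to 3. The same subtraction would apply to every gene. Before it the medians were 0.48, 0.21 and -0.68 for the 30 genes and 0.0013, 0.020 and -0.016 over all tested genes. The 0.86 in pair 3 is thus below the median over all tested genes on the same scale.

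The control library of pair 2 was not the lowest of its group in beta cell markers, although it was in granule genes. The beta cell markers summed to 13522 CPM in the control library of pair 2 and to 11212 CPM in that of pair 1. The part of endocrine cell content in the pair 2 values was not tested. Both pair 2 libraries lay below the other 4 for 12 of the 30 secretion genes (22.5% of all tested genes), among them Sytl4, Pclo, Syt13, Syt7, Cplx2, Cacna1d and Rims2. Of these 12 genes, 7 have more than 4000 bases of counted exon (Cacna1c, Cacna1d, Rims2, Unc13a, Pclo, Chrm3 and Adcy8), and genes of the 3 classes above that length were lower in pair 2, by medians of -0.39 to -0.49. Syt7, Syt13 and Cplx2 have 900 to 1440 bases of counted exon, and genes of up to 1000 bases and of over 1000 and up to 1500 bases were higher in pair 2, by medians of 0.47 and 0.24. Neuronal markers, of which 9 of 11 counted were tested, summed to 250 to 595 CPM in control libraries and 231 to 453 CPM under high glucose, with medians of -0.50, -0.28 and -0.56 in the pairs. The catecholamine enzyme gene Th, which sympathetic neurons express, held 4 to 9 counts per library and did not pass the filter for testing. Acinar markers, of interest for Rab3d and Chrm3, summed to 40.3 to 985 CPM in control libraries and 151 to 1443 CPM under high glucose. Their medians were -0.25, 0.43 and 3.37 in pairs 1 to 3, where Rab3d differed by 0.35, 0.42 and -0.93. No acinar marker was at 0 over all libraries, and the acinar factor Ptf1a held 0 to 15 counts per library. The 6 mesenchyme markers summed to 14472 to 34220 CPM in control libraries and 19829 to 29035 CPM under high glucose. That was above the beta cell sum in every library. Their 5 tested genes had medians of 0.40, -0.28 and -0.20 in pairs 1 to 3. The part of these other cells in the levels was not tested.

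**Figure D4:**
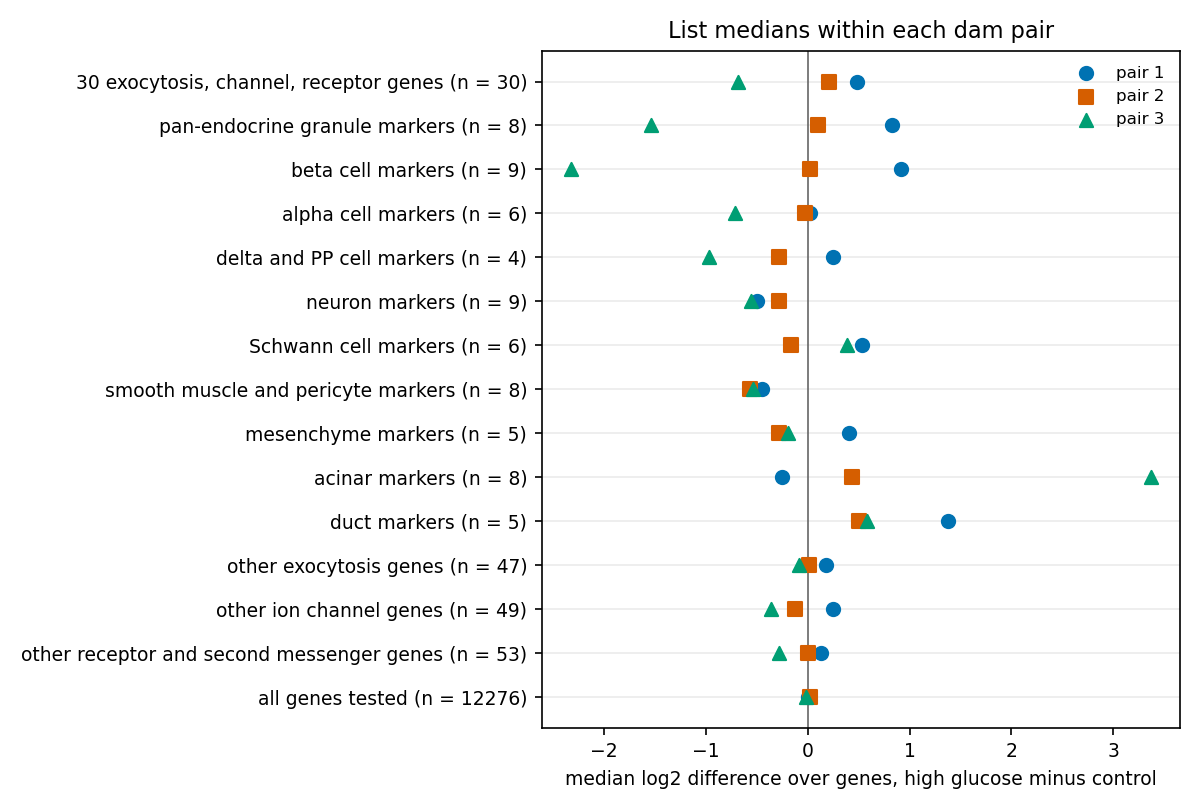
Median log2 difference between high glucose and control (x axis) in each dam pair for the 30 genes, for cell type markers and for other genes of the pathway, with the number of tested genes in brackets. The 30 genes (0.48, 0.21 and -0.68) keep the order of pairs seen for the endocrine granule markers (0.83, 0.10 and -1.54), at smaller size.

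Other genes of the same machinery also gave no call. Of 60 further exocytosis genes, 54 were counted and 47 tested, 0 passed in either direction and 2 had an unadjusted p below 0.05. Their median fitted log2 difference was -0.01, and the pair medians were 0.18, 0.01 and -0.09. The 3 most abundant per length were Vamp8, a SNARE of endosomes and exocrine granules (106 ± 21.6 CPM in control libraries and 96.7 ± 26.7 CPM under high glucose), Ptprn, a membrane protein of dense-core granules (235 ± 17.9 and 228 ± 23.6 CPM), and Napa, which recycles SNAREs (121 ± 14.8 and 115 ± 36.7 CPM). The smallest p belonged to Mlph, melanophilin, another Rab27 effector, with pair differences of 1.51, -0.011 and 0.66 (edgeR adjusted p = 0.977).

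Of 58 further channel genes, all counted, 49 were tested, 0 passed and 2 had an unadjusted p below 0.05, with a median of -0.04. The most abundant per length were Kcnk16, a background potassium channel of islets (98.6 ± 26.0 and 86.6 ± 43.0 CPM), Kcnj8, a pore subunit of ATP-sensitive channels in vessels (56.0 ± 9.23 and 38.8 ± 7.42 CPM), and Lrrc8a, the volume-regulated anion channel (77.4 ± 32.6 and 70.5 ± 33.5 CPM). Kcnn4, a calcium-activated potassium channel of blood cells and epithelia, had the smallest p. It was lower in all 3 pairs, at 17.8, 10.8 and 12.8 CPM in control libraries and 10.8, 7.715 and 3.61 CPM under high glucose, a log2 difference of -1.003 that did not pass (edgeR adjusted p = 0.678).

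Of 60 further receptor and second messenger genes, 58 were counted and 53 tested, 0 passed and 1 had an unadjusted p below 0.05, with a median of -0.09. Gnas, the stimulatory G protein that couples incretin receptors to cyclase, led by level (2661 ± 463 and 2588 ± 978 CPM), followed by the inhibitory G protein gene Gnai2 (976 ± 289 and 879 ± 126.4 CPM) and the protein kinase A regulatory subunit gene Prkar1a (351 ± 25.9 and 336 ± 82.0 CPM). Pde8b, which degrades cyclic AMP, was the gene with the smallest p. It was higher in all 3 pairs (1.31, 1.33 and 0.58) at 0.247 to 5.14 CPM, and did not pass (edgeR adjusted p = 0.9996).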

How the data were processed

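The authors deposited raw counts of read pairs per gene, 1 library per file. Per the file headers they were made with featureCounts 1.5.1, counting pairs on the reverse strand (setting 2) at a mapping quality of at least 10 over UCSC refGene of rn6. Per the submitters' processing notes, reads were aligned with STAR 2.5. Those notes name mm10 beside rn6, whereas the headers name rn6 only. The exon length per gene comes from the same deposited count files. Every library was assigned by its treatment label, and pairs were read from the stem shared by a left-horn and a right-horn title. In pair 2 the right-horn title carries a further digit after its horn letter, so that match is by stem only. Deviations from group means correlated within dams (0.474, 0.621 and 0.413 across genes), so dam was kept as a block.

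The test across genes was edgeR (4.0.16, R 4.3.3; TMM factors, filterByExpr, robust quasi-likelihood, Benjamini-Hochberg over 12276 genes, adjusted p below 0.05). DESeq2 1.42.0 and limma 3.58.1 were run as alternatives. The procedure was tested on simulated counts with dam as a block. It called 39 of 100 genes changed 2-fold and 88 of 100 changed 4-fold, all with the right sign. It also called 13 unchanged genes, so many 2-fold changes would be missed. CPM uses TMM-scaled library sizes. Differences within pairs are of log2 CPM with a prior count of 2. SE is the log2 difference over the root of F, and 95% intervals use the moderated degrees of freedom. Length offsets use per-library medians in 20 length bins.

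The 30 genes and all lists were chosen with earlier results of these data known. In each role the most abundant gene per length and any gene of 1 direction in all pairs or an unadjusted p below 0.05 are given for every library. Other genes with such values were chosen after seeing them. From each wider list the 3 most abundant per length and the smallest p are named.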

Additional observations from a re-analysis of the deposited data

How the results depend on the processing

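Under every alternative run, 0 of the 30 genes passed the adjusted threshold, 28 of them being tested when a mean count of 50 was required. The number of genes called over all tested was 2 with the main settings, 2 with RLE size factors or with length offsets (added after seeing the data), 4 with upper-quartile factors, 4 with scaling to the granule genes, 18 with no filter, 5 when a mean count of 50 was required, 1 with limma voom and 106 with DESeq2. Without the replicate block it was 0, and it was 18 to 55 when 1 pair was left out. The causes were not tested. Their median fitted difference (log2) was 0.00033, lay between -0.025 and 0.15 under other settings, and was -0.24, -0.088 and 0.29 without pairs 1, 2 and 3. Scaling to the granule genes moved the median of all tested genes by 0.148. Without pair 1 or without pair 3, 3 of the 30 genes had an unadjusted p below 0.05, and without pair 2 none did (edgeR). The share of all tested genes below that p was not counted for these fits. Whether 3 of 30 is above that share therefore cannot be said.

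The sign of small fitted log2 differences depended on the settings. Signs turned with length offsets at -0.0017 (Cacna1a), -0.00055 (Cacna1d), 0.025 (Snap25), -0.056 (Syt4), 0.046 (Rab3a), -0.026 (Unc13a) and -0.088 (Pclo). They turned with scaling to the granule genes at 0.0015 (Kcnh6), 0.12 (Snap25), 0.010 (Syt5), 0.16 (Rab3a), 0.10 (Rab3d) and 0.10 (Rph3al). Without the replicate block they turned at 0.20 (Snap25), -0.021 (Vamp2), 0.052 (Syt7), 0.016 (Rph3al), -0.016 (Unc13a) and 0.012 (Cadps). With limma voom they turned at 0.067 (Snap25), 0.024 (Rab3a) and -0.0044 (Unc13a), and with upper-quartile factors at -0.018 (Vamp2) and -0.0018 (Syt4). Snap25 was 0.0032 with RLE factors, 0.0020 with no filter and 0.0029 with DESeq2. Leaving out 1 pair turned the sign of 22 genes, with ranges of -0.048 to 0.57 (Cacna1d), -0.41 to 0.18 (Kcnh6), -0.49 to 0.71 (Snap25), -0.15 to 0.17 (Vamp2), -0.35 to 0.35 (Syt4), -0.48 to 0.085 (Syt5), -0.47 to 0.18 (Syt7), -0.69 to 0.63 (Syt13), -0.54 to 0.40 (Rab3a), -0.29 to 0.39 (Rab3d), -0.57 to 0.33 (Rab27a), -0.44 to 0.31 (Rph3al), -0.90 to 0.40 (Sytl4), -0.064 to 0.22 (Unc13a), -0.068 to 0.35 (Cplx1), -0.32 to 0.48 (Cplx2), -0.13 to 0.52 (Pclo), -0.71 to 0.27 (Cadps), -0.60 to 0.99 (Glp1r), -0.74 to 0.15 (Gipr), -0.35 to 0.74 (Ffar1) and -0.13 to 1.41 (Adcy5). The other 8 kept their sign, with ranges of 0.018 to 0.36 (Cacna1a), 0.16 to 0.54 (Cacna1c), -1.40 to -0.19 (Kcnma1), 0.064 to 0.21 (Stx1a), 0.21 to 0.66 (Rims2), -0.61 to -0.070 (Doc2b), 0.050 to 0.68 (Chrm3) and -0.57 to -0.13 (Adcy8). The lowest counts in a library were 10 for Chrm3, 12 for Doc2b and 14 for Cplx1.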
